A study of Mus musculus with 18 samples.

Results

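MHC class I molecules carry peptides from inside the cell to its surface, where cytotoxic T cells and natural killer cells inspect them. Described here are 9 genes of that pathway, chosen by name: the heavy chain genes H2-K1, H2-D1 and H2-T23, the light chain gene B2m, the peptide transporter genes Tap1 and Tap2, the loading factor Tapbp (tapasin), the trimming enzyme Erap1 and the transcriptional regulator Nlrc5. They are 9 of 24062 genes in the count tables, and all 9 passed the filter on low counts, which 12140 genes passed. The list is of names and sets no threshold on a measured value, but it was drawn up with earlier results of these data known.

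The cells were NIH3T3, an established mouse embryonic fibroblast line, called WT here, and NIH3T3-mCherry-mTRIM21, a line derived from it with an introduced mCherry-tagged mouse TRIM21, called TRIM21 here (mCherry is a red fluorescent protein). TRIM21 is a cytosolic antibody receptor and ubiquitin ligase. Cells of each line were electroporated with PBS, with bovine serum albumin (BSA) or with an antibody (IgG), and RNA was taken 16 h later. Each of the 6 groups had 3 samples, numbered 10, 11 and 14, so 18 libraries in all. All groups, the PBS controls included, were electroporated, and an untreated group was not analysed here. The antibody's target, the promoter behind the fusion and whether the TRIM21 line is a clone or a pool are not given in the sources used here. The line contrast rests on a single derived line and its parent, and the labels do not say that samples came from separate cultures, so p-values measure the spread between these samples, which may be technical.

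In the class I pathway, proteasomes and cytosolic peptidases make peptides, the Tap1-Tap2 transporter pumps them into the endoplasmic reticulum, Erap1 trims their ends, and tapasin holds empty heavy chain-B2m complexes near the transporter until a peptide fits. H2-K1 and H2-D1 are classical heavy chains that vary between mouse strains, and H2-T23 encodes Qa-1, a non-classical heavy chain recognised by natural killer cell receptors. Fibroblasts keep a low constant level of these genes and raise it in response to interferon, while NLRC5 joins the RFX and NF-Y factors on class I promoters.

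The promoters of 5 members are shown, each with a match to a sequence element searched for because of its known role in this pathway. Tapbp and Erap1, which also hold such a match, were searched but are not shown. The sequences are RefSeq's for build GRCm38.p6, from 250 bases before to 50 bases after the annotated start, 5′ to 3′ on the gene's strand. Capitals mark the NF-Y motif (ATTGG or its reverse complement CCAAT) and the interferon-stimulated response element, searched as GAAA, any 2 bases, GAAA, on both strands.
H2-K1 (chr17:34000298-34000597, minus strand): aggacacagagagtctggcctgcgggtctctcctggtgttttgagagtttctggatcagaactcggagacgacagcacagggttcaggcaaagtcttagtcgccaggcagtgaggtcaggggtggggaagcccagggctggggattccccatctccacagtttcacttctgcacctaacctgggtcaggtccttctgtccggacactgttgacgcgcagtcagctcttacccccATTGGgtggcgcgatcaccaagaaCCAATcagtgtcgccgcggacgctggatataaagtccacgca
H2-D1 (chr17:35262844-35263143, plus strand): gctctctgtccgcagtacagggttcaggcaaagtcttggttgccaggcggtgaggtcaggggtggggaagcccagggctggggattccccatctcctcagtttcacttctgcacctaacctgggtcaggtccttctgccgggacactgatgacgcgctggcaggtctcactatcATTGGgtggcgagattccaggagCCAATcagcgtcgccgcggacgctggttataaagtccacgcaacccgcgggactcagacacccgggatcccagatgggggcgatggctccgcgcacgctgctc
H2-T23 (chr17:36032652-36032951, minus strand): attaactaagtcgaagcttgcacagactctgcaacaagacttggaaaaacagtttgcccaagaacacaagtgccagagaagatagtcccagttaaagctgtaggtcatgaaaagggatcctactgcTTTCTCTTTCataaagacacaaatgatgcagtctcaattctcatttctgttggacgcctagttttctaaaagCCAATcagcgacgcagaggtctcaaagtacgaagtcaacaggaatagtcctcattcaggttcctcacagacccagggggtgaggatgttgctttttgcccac
B2m (chr2:122147437-122147736, plus strand): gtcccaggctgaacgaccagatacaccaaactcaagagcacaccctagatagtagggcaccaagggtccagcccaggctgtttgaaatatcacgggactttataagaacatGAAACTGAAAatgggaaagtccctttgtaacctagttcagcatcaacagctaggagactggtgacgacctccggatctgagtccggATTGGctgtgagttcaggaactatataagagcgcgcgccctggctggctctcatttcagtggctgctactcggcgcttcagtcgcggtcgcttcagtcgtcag
Tap1 (chr17:34187306-34187605, plus strand): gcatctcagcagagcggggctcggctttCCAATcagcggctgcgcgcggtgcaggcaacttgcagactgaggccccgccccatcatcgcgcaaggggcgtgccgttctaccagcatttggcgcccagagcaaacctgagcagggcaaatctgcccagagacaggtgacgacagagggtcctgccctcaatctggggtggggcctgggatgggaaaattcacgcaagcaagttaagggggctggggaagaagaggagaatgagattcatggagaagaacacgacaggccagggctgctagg
Of the 9 members, 7 had a promoter in the table, and for H2-K1, which has 2 listed starts, 1 window is shown. The H2-K1 and H2-D1 windows were near copies of each other, with 206 of 228 aligned positions (90.4%) identical in a local alignment. An NF-Y motif stood in 6 of the 7 windows, all except that of Erap1, against 37.4% of 32851 promoters of the same length. The string searched for the interferon-stimulated response element was found in H2-T23 (from -124), B2m (from -139) and Erap1 (from -4), against 3.44% of all promoters. These exact letters were not in the H2-K1, H2-D1, Tap1 or Tapbp windows. Variants of the element that differ from the string were not searched, so those windows are not shown to lack the element. The TGACG core of the X2/CRE element stood in H2-K1, H2-D1, B2m and Tap1 (20.8% of all promoters). The loosely written kappaB motif (GGG, any 5 bases, CC) occurred in 4 of the 7 and in 50.8% of all promoters. Tap1 shares its promoter region with the immunoproteasome gene Psmb9, which is read in the opposite direction, and 275 of the 300 bases of their windows overlap. A match describes letters in a window and not binding.

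On the GENCODE annotation of GRCm38, 6 of the 9 genes lie on chromosome 17 between 33915899 and 36032855, the mouse H2 complex: Tapbp, H2-K1, Tap1, Tap2, H2-D1 and H2-T23. B2m lies on chromosome 2 (122147686 to 122153083), Nlrc5 on chromosome 8 (94434356 to 94527272) and Erap1 on chromosome 13 (74639568 to 74693201). All are protein coding. Because heavy chain genes resemble one another, the share of 50-base windows of the longest transcript that also occur in another gene was counted. It was 8.11% for H2-K1, 14.3% for H2-D1 and 15% for H2-T23, 2% or less for Tapbp, Tap1 and Tap2, and 0% for B2m, Nlrc5 and Erap1. Counts of the heavy chains are therefore less certain than those of the other members, also because NIH3T3 and the reference genome come from different mouse strains; the size of either effect was not tested.

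The libraries held 19509017 to 26521824 reads in genes in the WT line and 20314542 to 29766433 in the TRIM21 line, so 3 reads, taken as the detection floor, correspond to 0.101 to 0.154 CPM (counts per 1e6 gene reads, scaled by TMM factors of 0.977 to 1.03). Trim21 checked the labels, at 6.54 to 9.73 CPM in the 9 WT and 984 to 1190 CPM in the 9 TRIM21 samples. All 7 fibroblast markers were above 1 CPM in every sample, with a summed level of 22200 to 29300 CPM in the WT and 16000 to 25400 CPM in the TRIM21 line. Of 8 haematopoietic markers only Cd68 exceeded 1 CPM (4.57 to 8.65), and Ptprc, which defines leukocytes, stayed at or below 0.224 CPM; no epithelial or endothelial marker had a mean above 1 CPM. Libraries also differed in how level followed GC content of the transcript, with slopes of -0.288 to 0.147 log2 units per 10 points of GC in the WT and -0.159 to 0.128 in the TRIM21 line. The TRIM21 PBS sample numbered 11 had the lowest level of the TRIM21 line for Tap1, Tap2, Tapbp, H2-T23, H2-K1 and Nlrc5, and the highest for Erap1.

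Per length of the longest transcript, as CPM per kilobase (RPKM), the light chain was far above every other member. B2m had 489 ± 39.9 RPKM (SD, n = 18), H2-D1 48.8 ± 4.79 and Tapbp 44.1 ± 5.6. A middle group held Tap2 at 6.64 ± 1.23 RPKM, H2-K1 at 6.49 ± 1.17, Erap1 at 4.56 ± 0.441 and Tap1 at 4.35 ± 0.622. H2-T23 followed at 1.1 ± 0.344 RPKM and Nlrc5 was lowest at 0.244 ± 0.0743 RPKM (SD, n = 18). Neighbours in this order overlapped in places: H2-D1 was above Tapbp in 14 of 18 samples, Tap2 above H2-K1 in 7 and Erap1 above Tap1 in 10, so those pairs are not separated beyond their spread. H2-K1 exceeded Erap1 in 17 of 18 samples, and B2m over H2-D1, Tapbp over Tap2, Tap1 over H2-T23 and H2-T23 over Nlrc5 held in 18 of 18. With the union of all exons as length the order of the means was the same, but their spacing changed. Tap2 then read 6.04 ± 1.12 RPKM, H2-K1 4.14 ± 0.744 and Erap1 3.53 ± 0.342 (SD, n = 18). The counts of samples above were made with the longest transcript only.

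**Figure D1:**
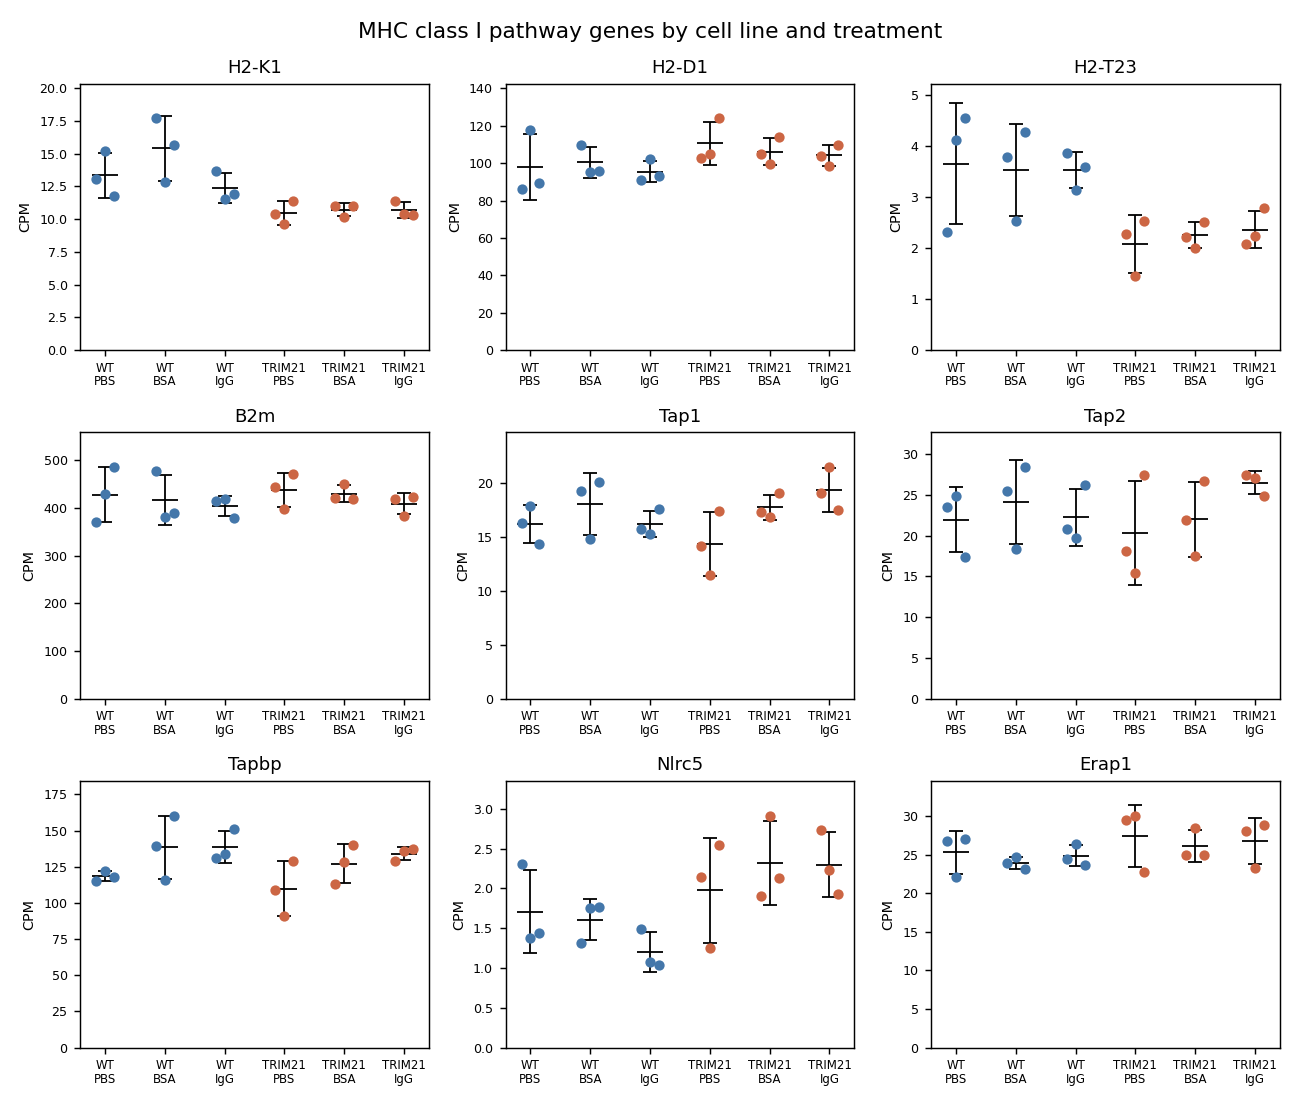
Levels of the 9 genes in CPM (vertical axes, starting at 0) in the 6 groups of line and treatment; each point is a sample and black bars give the mean and SD of 3 samples. H2-K1 is at 11.4 CPM or less in all 9 TRIM21 samples and at 11.5 or more in all 9 WT samples, while B2m, Tap2 and Erap1 overlap between the lines.

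The first comparison asked how the TRIM21 line differs from its parent, averaged over the 3 treatments. H2-K1 and H2-T23 were lower in the TRIM21 line, at 0.78 and 0.626 times the WT level, and Nlrc5 was higher, at 1.47 times. The other 6 members did not pass the test. With edgeR's quasi-likelihood test and a Benjamini-Hochberg adjusted p under 0.05, 2 of 9 members were lower, against 4.79% of all 12140 genes, and 1 of 9 was higher, against 1.39%; in either direction 3 of 9 passed, against 6.18% of all genes. The median log2 fold change of the 9 members was 0.02, beside 0.014 over all genes tested, so the members did not shift together.

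H2-K1, a classical heavy chain, had 13.1, 15.2 and 11.8 CPM in the WT samples after PBS, 17.7, 12.8 and 15.7 after BSA and 13.7, 11.5 and 11.9 after IgG. In the TRIM21 line it had 10.4, 9.6 and 11.4 CPM after PBS, 11, 10.2 and 11 after BSA and 11.4, 10.4 and 10.3 after IgG. Every TRIM21 sample was thus below every WT sample, a separation in this direction that 1.67% of all tested genes showed, though the gap between the groups was narrow (11.4 against 11.5 CPM). The spread was also smaller in the TRIM21 line (10.6 ± 0.617 CPM, SD, n = 9) than in the WT line (13.7 ± 2.12, SD, n = 9), a difference in spread for which no test was run. The log2 fold change was -0.36 (SE 0.0771, 95% interval -0.52 to -0.20, edgeR adjusted p = 0.00754). Fewer cells making the RNA and less RNA per cell cannot be told apart in these bulk samples. The summed fibroblast markers also reached lower values in the TRIM21 line, as given above, and their part in this difference was not tested.

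H2-D1, the other classical heavy chain, went the other way in its means without passing the test. Its 9 WT samples ran from 86.4 CPM over a median of 95.4 to 118, and its 9 TRIM21 samples from 98.7 over 105 to 124, so the groups overlapped widely. The log2 fold change was 0.13 (SE 0.0656, 95% interval -0.01 to 0.27, edgeR adjusted p = 0.264). Set against each other within each library, which removes depth and scaling, there were 14 ± 1.74 H2-K1 reads per 100 H2-D1 reads in the WT line (11.2 to 16.4, SD, n = 9) and 9.95 ± 0.651 in the TRIM21 line (9.11 to 11, SD, n = 9). These ratios did not overlap between the lines, though the gap was narrow (11 against 11.2). The share of all gene pairs with such a separation was not computed. The ratios reuse the H2-K1 counts tested above and are given as a description.

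H2-T23, the non-classical heavy chain Qa-1, was sparse, with 29 to 114 reads per sample. The WT samples had 2.31, 4.13 and 4.55 CPM after PBS, 3.79, 2.53 and 4.29 after BSA and 3.86, 3.15 and 3.6 after IgG. In the TRIM21 line the values were 2.28, 1.45 and 2.54 CPM after PBS, 2.22, 2.01 and 2.52 after BSA and 2.09, 2.23 and 2.78 after IgG. Although 6 of 9 TRIM21 samples lay below the lowest WT sample, the groups overlapped between 2.31 and 2.78 CPM. The log2 fold change was -0.68 (SE 0.148, 95% interval -0.99 to -0.36, edgeR adjusted p = 0.00904). Matched by treatment and number, the TRIM21 sample was lower in 9 of 9 cases, a description that reuses the counts tested above. The labels do not say that the numbers mark pairs, and the share of all genes with such a count was not computed. Of the members, H2-T23 also shares the largest part of its sequence with other genes.

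B2m, the light chain that every class I heavy chain needs to fold, did not pass the test. The WT samples ran from 370 CPM over a median of 415 to 485, and the TRIM21 samples from 383 over 420 to 470, with 7681 to 13132 reads behind each value. The log2 fold change was 0.03 (SE 0.0639, edgeR adjusted p = 0.815), and its 95% interval of -0.10 to 0.17 bounds a difference to 1.12-fold upward and 0.931-fold downward. Per 1000 B2m reads there were 33.1 ± 4.93 H2-K1 reads in the WT and 25.1 ± 1.66 in the TRIM21 line, and 8.58 ± 1.57 against 5.26 ± 0.864 H2-T23 reads (SD, n = 9 each). Both ratios overlapped between the lines. The H2-K1 ratio ran from 24.3 to 40.4 in the WT and from 22.7 to 27.3 in the TRIM21 line. The H2-T23 ratio ran from 6.26 to 11 in the WT and from 3.64 to 6.58 in the TRIM21 line.

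None of the peptide transport and loading genes passed the test between the lines. Tap1 and Tap2, which form the transporter, had log2 fold changes of 0.02 (95% interval -0.16 to 0.20, edgeR adjusted p = 0.915) and 0.01 (-0.25 to 0.26, adjusted p = 0.98). Tap1 ran from 14.4 CPM over a median of 16.3 to 20.1 in the WT samples and from 11.5 over 17.4 to 21.5 in the TRIM21 samples. Tapbp, the chaperone that ties heavy chains to the transporter, had a log2 fold change of -0.09 (95% interval -0.25 to 0.06, edgeR adjusted p = 0.493). Erap1, which trims peptides to the length that heavy chains hold, had 0.12 (95% interval -0.03 to 0.27, adjusted p = 0.358). All 4 overlapped between the lines.

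Nlrc5, a regulator that switches on class I genes, was the scarcest member, with 21 to 71 reads per sample. The WT samples had 2.31, 1.38 and 1.44 CPM after PBS, 1.31, 1.75 and 1.77 after BSA and 1.49, 1.07 and 1.04 after IgG. The TRIM21 samples had 2.14, 1.25 and 2.54 CPM after PBS, 1.91, 2.91 and 2.13 after BSA and 2.74, 2.23 and 1.93 after IgG. The groups overlapped most after PBS, where the highest WT sample and the lowest TRIM21 sample both lay. Matched by treatment and number, with the same limits as for H2-T23, the TRIM21 sample was higher in 7 of 9 cases. The log2 fold change was 0.56 (SE 0.161, 95% interval 0.22 to 0.90, edgeR adjusted p = 0.0463). This call sat at the threshold: it was lost in 13 of 18 fits that left out a sample (adjusted p of 0.0139 to 0.11 over the 18) and with limma-voom (adjusted p = 0.0567). Of the fits with a sample left out, the 5 that kept it were those without WT PBS 10, WT IgG 10, TRIM21 PBS 11, TRIM21 BSA 10 or TRIM21 IgG 14.

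**Figure D2:**
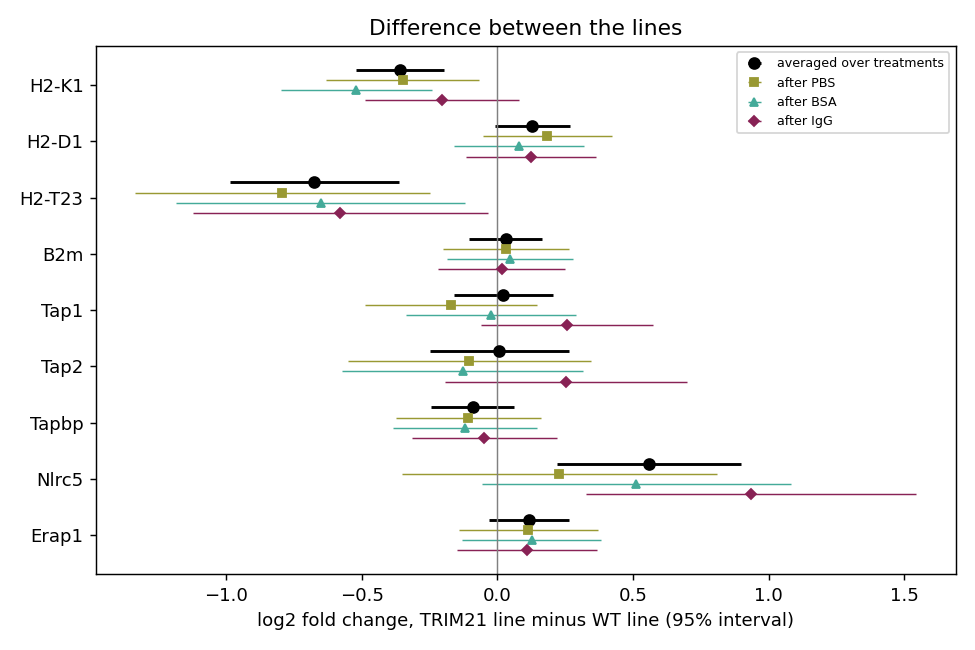
Log2 fold change of the 9 genes, TRIM21 minus WT (horizontal axis), averaged over treatments and after PBS, BSA or IgG alone, with 95% intervals from edgeR. H2-K1 and H2-T23 lie below 0 after each treatment and in the average of these values, and Nlrc5 lies above 0. Intervals are wider after a single treatment.

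Taken treatment by treatment, with 3 samples against 3, no member passed in the main edgeR fit. Of all genes, 1.71% passed there after PBS, 0.848% after BSA and 0.774% after IgG. At an unadjusted p under 0.05 there were 2 of 9 members in each of the 3, beside 19.8%, 10.3% and 7.79% of all genes, so the count after PBS is near the background. H2-K1 had log2 fold changes of -0.35 after PBS, -0.52 after BSA and -0.21 after IgG (edgeR adjusted p = 0.176, 0.089 and 0.748). H2-T23 had -0.79, -0.65 and -0.58 (adjusted p = 0.13, 0.362 and 0.606), and Nlrc5 had 0.23, 0.51 and 0.94 (adjusted p = 0.677, 0.53 and 0.24). All 3 genes thus had the same sign after each treatment. They were picked out by the average of these same values, so the shared sign is a description and no separate support. With the replicate number as a block, edgeR called H2-T23 after PBS (log2 fold change -0.81, adjusted p = 0.0407). With a GC offset, added after seeing the data, edgeR called H2-K1 after BSA (-0.47, adjusted p = 0.0434). The DESeq2 Wald test called H2-K1 after BSA (log2 fold change -0.53, adjusted p = 0.0207). limma-voom called no member after any of the 3 treatments. After PBS, H2-T23 passed when the WT sample numbered 10 was left out (log2 fold change -1.04, edgeR adjusted p = 0.0345), and after BSA H2-K1 passed without the WT sample numbered 11 (-0.65, adjusted p = 0.0257).

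The second question was whether putting antibody or albumin into the cells moved these genes. No member passed in any of the 6 treatment comparisons within a line or the 3 tests of whether a treatment difference differed between the lines, and neither did any other gene (0% of 12140 in each of the 9, edgeR). DESeq2 and limma-voom also called 0 members in all 9. At an unadjusted p under 0.05 there were 681, 45 and 447 of all genes in the TRIM21 line for IgG minus PBS, IgG minus BSA and BSA minus PBS, 325, 713 and 302 in the WT line, and 221, 482 and 790 for the 3 tests between lines. The comparisons with PBS share their PBS samples, and those with IgG their IgG samples, so they are not independent of each other.

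In the TRIM21 line, Tap1, Tap2 and Tapbp had the largest log2 differences of IgG minus PBS among the members, while Erap1 had -0.03. Of the 9 other endoplasmic reticulum loading and quality control genes, described further below, 3 had a positive difference, and their median was -0.034. Tap1 had 14.2, 11.5 and 17.4 CPM after PBS, 17.3, 16.9 and 19.1 after BSA and 19.1, 21.5 and 17.5 after IgG in that line. The lowest IgG sample and the highest PBS sample were nearly level, at 17.5 and 17.4 CPM. How many of all genes separate 3 samples from 3 in this way was not counted. The log2 fold change for IgG minus PBS was 0.43 (SE 0.150, 95% interval 0.11 to 0.75, edgeR unadjusted p = 0.0108, adjusted p = 0.724). Tap2 had 18.1, 15.4 and 27.5 CPM after PBS and 27.5, 27.1 and 24.9 after IgG, which overlapped, with a log2 fold change of 0.38 (SE 0.212, edgeR adjusted p = 0.724). Tapbp had 109, 91 and 129 CPM after PBS and 129, 136 and 137 after IgG, with 0.29 (SE 0.127, unadjusted p = 0.0346, edgeR adjusted p = 0.724). The 2 of 9 members at an unadjusted p under 0.05, Tap1 and Tapbp, stand beside 5.61% of all genes, and none of them is a call.

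In the WT line the same IgG minus PBS differences were 0.00 for Tap1, 0.02 for Tap2 and 0.23 for Tapbp on the log2 scale. The test of the difference between the lines gave 0.43 for Tap1 (SE 0.213, edgeR unadjusted p = 0.0605, adjusted p = 0.972), so a difference between the lines was not shown. The TRIM21 PBS sample numbered 11 was the lowest of its group for all 3 genes, and without it the TRIM21 differences were 0.311 for Tap1, 0.228 for Tap2 and 0.19 for Tapbp. Without the PBS sample numbered 14, the highest of its group for all 3, they were 0.605, 0.673 and 0.436. The GC slopes of the TRIM21 PBS libraries were -0.138, -0.0688 and 0.128 and those of the IgG libraries 0.11, 0.121 and -0.00154. With an offset for GC content in the fit, the difference was 0.361 for Tap1, 0.295 for Tap2 and 0.195 for Tapbp.

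The other members had smaller differences after IgG in the TRIM21 line, where no member passed. Heavy chains, B2m, Nlrc5 and Erap1 had log2 fold changes between -0.10 and 0.20 for IgG minus PBS there. The 95% intervals of Nlrc5 (-0.365 to 0.765) and H2-T23 (-0.402 to 0.728) were wide and included the values of Tap1, Tap2 and Tapbp. B2m, the most precisely measured member, had 443, 398 and 470 CPM after PBS and 419, 383 and 423 after IgG, a log2 fold change of -0.10 (edgeR adjusted p = 0.783). In the WT line, H2-K1 was at 17.7, 12.8 and 15.7 CPM after BSA and 13.7, 11.5 and 11.9 after IgG, a log2 fold change of -0.32 (SE 0.133, edgeR unadjusted p = 0.0266, adjusted p = 0.741).

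**Figure D3:**
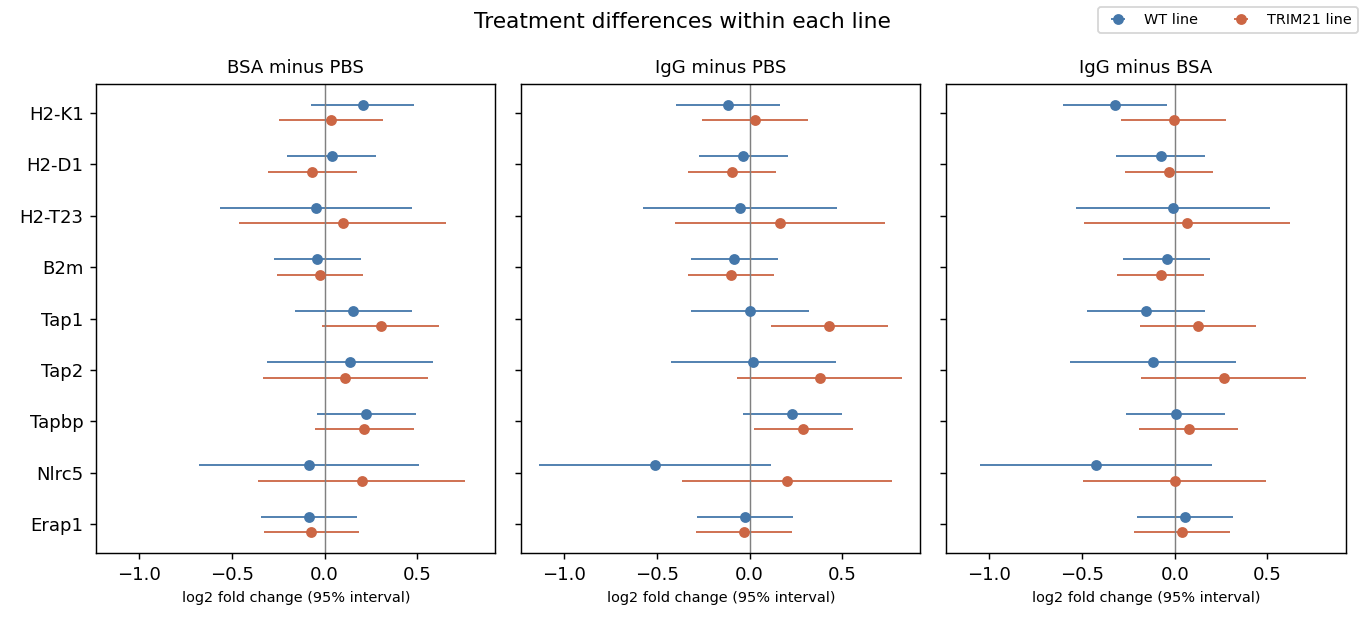
Log2 fold change of the 9 genes between treatments within the WT line (blue) and the TRIM21 line (orange), with 95% intervals from edgeR. Tap1 and Tapbp in the TRIM21 line for IgG minus PBS have intervals above 0 before adjustment over all genes, and no gene passed after it.

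Among themselves, Tap1, Tap2 and Tapbp varied together from library to library. With each gene's log2 CPM taken as its deviation from the mean of its own line, Tap1 and Tap2 had Pearson's r of 0.88 and Spearman's rho of 0.87 over 18 libraries, and r of 0.86 without the 2 farthest libraries. Tap1 and Tapbp had r of 0.83 and rho of 0.8, with r of 0.72 without the 2 farthest. Erap1 ran opposite to Tap1, with r of -0.67 and rho of -0.71, and r of -0.55 without the 2 farthest. B2m had r of -0.07 with Tap1. These 4 are among 36 pairs of members computed, and they describe the libraries without a test, since all genes of a library share its depth and preparation.

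The same libraries also differed in their GC slope, and the deviations of several members went with it. The GC slope had r of 0.85 with the Tap2 deviation (GC content of the transcript 56.9%), 0.7 with Tap1 (55.8%), 0.65 with H2-K1 (54.3%), 0.49 with Tapbp (57.1%) and 0.45 with H2-D1 (55.9%). It had r of -0.75 with Erap1 (41.5%), -0.34 with B2m (41.2%), 0.16 with H2-T23 (54.5%) and 0.13 with Nlrc5 (52.6%). Without the 2 libraries of most extreme slope, r was 0.82 for Tap2, 0.76 for Tap1, 0.61 for H2-K1, 0.56 for Tapbp, 0.32 for H2-D1, -0.75 for Erap1, 0.02 for B2m, 0.44 for H2-T23 and 0.34 for Nlrc5. The B2m value thus rested on those 2 libraries, and H2-T23 and Nlrc5 were then at or above H2-D1. How much of the common variation of Tap1, Tap2 and Tapbp goes with GC content was not tested.

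**Figure D4:**
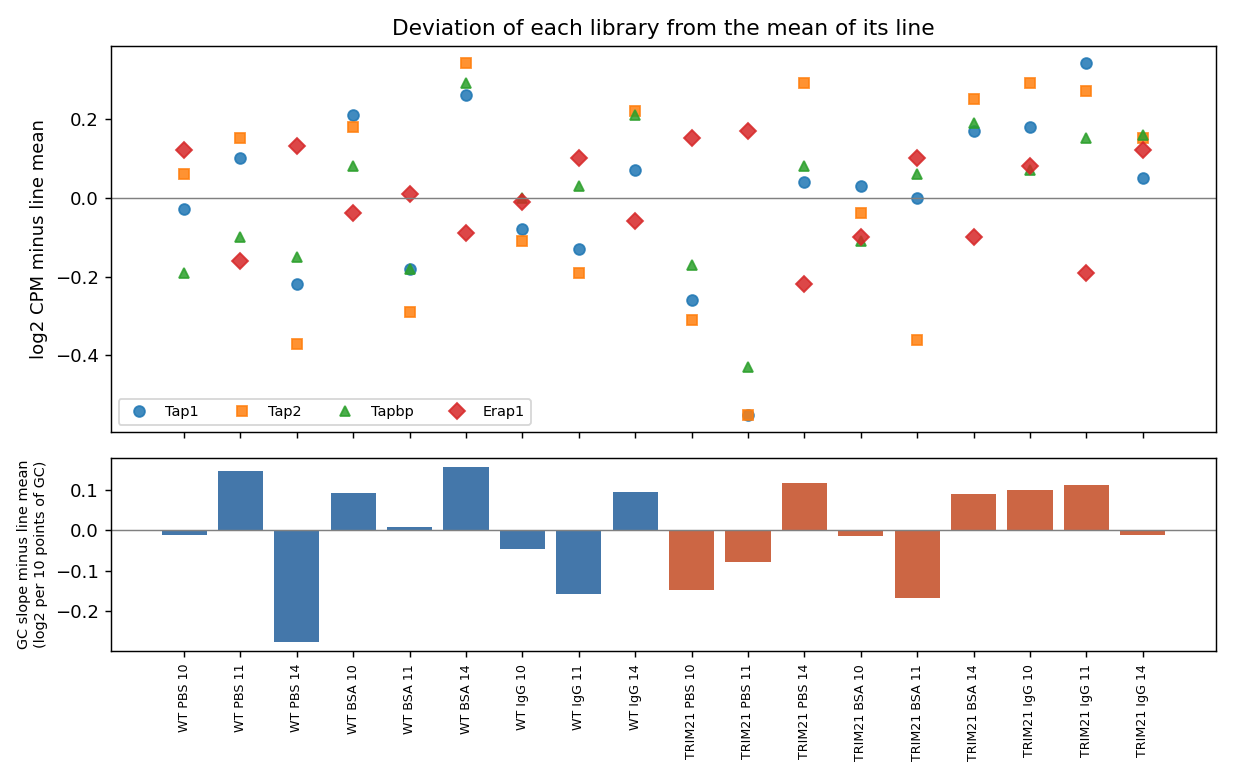
Upper panel: log2 CPM of Tap1, Tap2, Tapbp and Erap1 in each of the 18 libraries minus the mean of its line. Lower panel: the library's slope of level on transcript GC content minus the mean of its line, in log2 units per 10 points of GC (WT blue, TRIM21 orange). Tap1 and Tap2 are lowest in the TRIM21 PBS library numbered 11, at -0.55 each, and Erap1 runs opposite to them in most libraries.

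Of 11234 genes with a mean of at least 1 CPM, those most like H2-K1 over the 18 libraries, by r of the same deviations, were Sharpin (0.9), Irf3 (0.89) and Tmem9 (0.89). Those most like B2m were Snx2 (0.84), Dffb (0.83) and 3110039M20Rik (0.82). Those most like Tap1 were Trim46, Tyk2 and Stk11ip (0.93 each). None of these 9 genes passed the test between the lines (adjusted p of 0.178 to 0.998, edgeR). The 3 most like Tap1 had transcript GC contents of 56.1% to 59%, near that of Tap1 (55.8%). Those most like H2-K1 (54.3%) had 54.3% to 56.7%. Of those most like B2m (41.2%), Snx2 had 42.8% and 3110039M20Rik 41.1%, but Dffb had 52.2%. Of the genes compared, 0.632% had an r with Tap1 at least as far from 0 as that of Tap2.

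The other genes of the pathway were taken from 8 lists holding 74 genes, of which 53 were tested, and 1 of these passed between the lines, beside 6.18% of all genes tested. That gene was Cd1d1, from the list of other heavy chains, which presents lipids and not peptides. It was lower in the TRIM21 line, at 3.1 ± 0.594 CPM against 4.31 ± 0.883 (SD, n = 9 each), with a log2 fold change of -0.47 (SE 0.133, edgeR adjusted p = 0.043). Its call was lost in 13 of 18 fits that left out a sample (adjusted p of 0.0203 to 0.0969 over the 18) and with limma-voom (adjusted p = 0.053); it was kept without WT PBS 10, WT PBS 11, WT BSA 11, WT IgG 10 or TRIM21 PBS 14. The other 5 tested heavy chains did not pass, among them Mr1, which presents vitamin metabolites (log2 fold change -0.26, adjusted p = 0.165), H2-T10 (-0.03) and H2-M3, which presents formylated peptides (-0.16). Of the list's 16 genes 10 were too low to test, and H2-Q6 and H2-Q7 were listed at 0 in all 18 samples.

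The remaining steps of the pathway showed no call between the lines. Of the endoplasmic reticulum loading and quality control genes, 9 of 9 were tested and 0 passed, with Calr at 1840 CPM (log2 fold change -0.14), Pdia3 at 992 (-0.06) and Canx at 901 (0.07), chaperones that fold and load heavy chains. Of 8 proteasome genes 7 were tested and 0 passed: Psmb6 (0.09) and Psmb7 (0.03), constitutive catalytic subunits, and the activator subunit Psme2 (-0.10). The immunoproteasome subunit Psmb8 was too low to test, with 42 reads over 18 samples, and Psmb9, named because it shares the Tap1 promoter, had 1.42 CPM (log2 fold change -0.10, edgeR adjusted p = 0.775). All 7 cytosolic peptidases were tested and 0 passed, with Npepps at -0.11, Tpp2 at 0.07 and Lap3 at 0.09.

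Of 15 regulators 0 passed, with Nfkb1 at 0.05, Creb1 at -0.03 and Ezh2, a silencing methyltransferase, at 0.11 on the log2 scale. Stat2, named after its values were seen, came nearest with -0.46 (edgeR adjusted p = 0.0526). The 7 interferon receptor and kinase genes had log2 fold changes from -0.16 to -0.02, and 0 passed. Jak1 had -0.06, Ifnar1 -0.07 and Jak2 -0.03. A joint shift of these genes was not tested. Interferon transcripts were scarce: Ifnb1, Ifng, Ifna4 and Ifna5 had 0 reads in all 18 samples and Ifna2 had 1 read in 1 sample, below the floor of 3 reads.

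The class II pathway, which professional antigen-presenting cells use, was near the floor. Of its 7 genes 2 were tested, H2-DMa at 4.19 CPM and H2-DMb1 at 1.75 CPM, and neither passed. Cd74, the invariant chain, had 63 reads over 18 samples, the class II regulator Ciita 8, H2-Ab1 3, and H2-Aa and H2-Eb1 1 each.

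Around the members themselves, 139 other genes of the count table lie in the stretch of chromosome 17 that holds 6 of the 9. Of these, 85 were tested and 0 passed between the lines, beside 6.18% of all genes, with a median log2 fold change of 0.09 beside 0.014 over all genes.

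**Figure D5:**
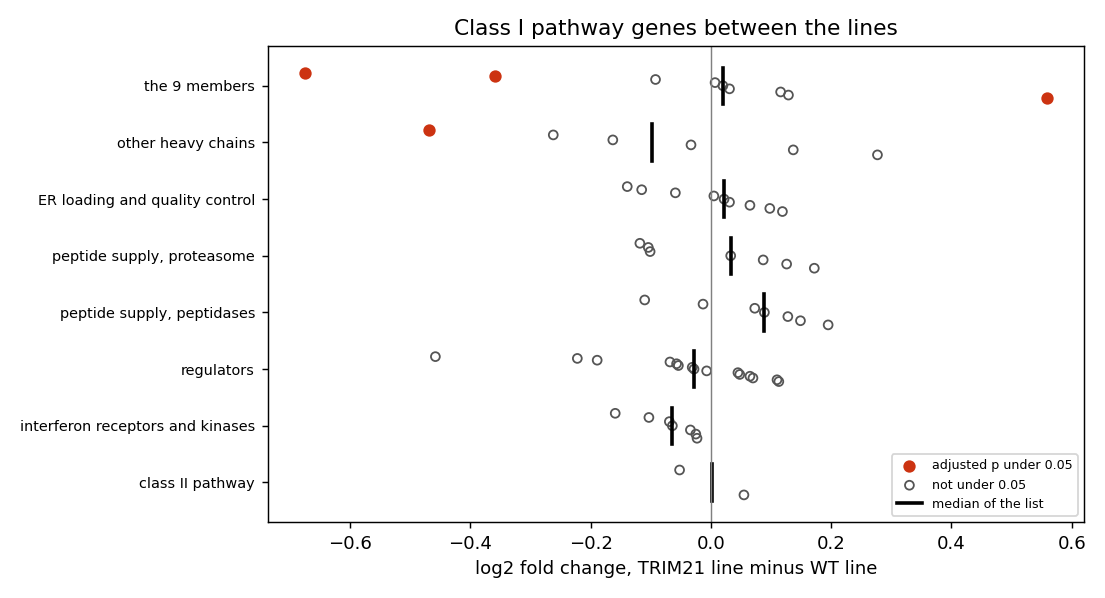
Log2 fold change, TRIM21 minus WT averaged over treatments (horizontal axis), of the 9 members and of the tested genes of each pathway list; filled red points have an edgeR adjusted p under 0.05 and black bars are list medians. The 3 red members are H2-T23, H2-K1 and Nlrc5, and the 1 red point outside them is Cd1d1 at -0.47.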

How the data were processed

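Per the labels, RNA of 18 electroporated NIH3T3 samples (2 lines, 3 treatments, 3 samples per group) was sequenced from strand-specific, polyA-enriched libraries. The authors deposited raw read counts per gene symbol, 1 table per sample. Per the submitters' processing notes, the tools included STAR 2.5.1b, HTSeq 0.6.0 and DESeq2 1.6.3, with build mm10; counting settings and annotation are not given in the sources used here. Lines that name no gene were left out; the line for reads aligned to several places held 36.4% to 40.6% of all entries per table, so genes with near-identical copies may be undercounted. Samples within a group differed beyond counting noise (chi-square/df between 11 and 85.9 over 18 pairs).

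Differences were tested with edgeR 4.0.16 under R 4.3.3 (filterByExpr with a minimum count of 10, TMM, glmQLFit and glmQLFTest, 1 mean per group over all 18 samples), with Benjamini-Hochberg adjustment over 12140 genes within each comparison and a threshold of 0.05; standard errors and 95% intervals were derived from the quasi-likelihood F statistic. Scripts were tested on simulated counts. Symbols were matched to GENCODE for GRCm38 (22750 directly, 916 by an older symbol, 396 not); positions and lengths come from that annotation. The members and gene lists were chosen with earlier results of these data known. All 9 members are named, and from each list every gene past the threshold between the lines plus the 3 genes with most CPM. Alternatives were DESeq2 size factors, no filter, the DESeq2 1.42.0 Wald test, limma-voom (limma 3.58.1), only the groups compared, the replicate number as a block, leaving out each sample, and union exon length; a GC offset (lowess of each library's deviation on transcript GC, known for 99.3% of tested genes), alone and with the block, was added after seeing the data. Same-number samples deviated together in every pair (r over 0.1) in 2 of 9 comparisons: the lines after BSA (0.324, 0.289 and 0.445) and IgG minus BSA in the WT line (0.232, 0.288 and 0.397); the labels do not say what the numbers mark. The result for 1 of the searched promoter motifs is not reported here.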

Additional observations from a re-analysis of the deposited data

How the results depend on the processing

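Between the lines averaged over treatments, H2-K1 and H2-T23 kept their direction and call in all 7 alternatives with all samples (log2 fold change -0.36 to -0.35 and -0.69 to -0.66) and in all 18 fits leaving out a sample (-0.40 to -0.32 and -0.76 to -0.62). The number of members called there was 2 to 3, and limma-voom gave 2, without Nlrc5. After PBS alone, where 0 members passed, the replicate block gave 1 (H2-T23, -0.81, adjusted p = 0.0407), the block with the GC offset gave 2 (H2-K1 as well, -0.36, adjusted p = 0.0274), and leaving out a sample gave 0 to 1. After BSA alone, also 0, the DESeq2 Wald test, the GC offset, and the GC offset with the block each gave 1 (H2-K1), and leaving out a sample gave 0 to 1. Same-number samples had a mean correlation of 0.218 (-0.323 to 0.578 over 45 pairs, 32 above 0.1). All 3 pairs were above 0.1 in 2 of 9 comparisons, the lines after BSA and IgG minus BSA in the WT line. The main fits used no block in any comparison, these 2 included. With the block alone, 0 members passed in either of these 2. The block changed no other count of members.

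Values near 0 changed sign. Between the lines Tap2 went from 0.01 to -0.003 with the replicate block, -0.017 with the GC offset and -0.022 with both, and leaving out a sample gave -0.093 to 0.055 for Tap2, -0.004 to 0.061 for B2m and -0.039 to 0.058 for Tap1. For IgG minus PBS in the TRIM21 line, the GC offset gave -0.016 for H2-K1 and 0.018 for Erap1, and with the block -0.019 and 0.02. Leaving out a sample there gave -0.021 to 0.108 for H2-K1, -0.143 to 0.068 for Erap1, -0.149 to 0.001 for H2-D1, -0.014 to 0.348 for H2-T23 and -0.013 to 0.446 for Nlrc5, the last 2 turning without the TRIM21 PBS sample numbered 11. The cause of these changes was not tested. With union exon length, levels read 4.14 RPKM for H2-K1, 39.7 for H2-D1, 3.11 for Tap1, 35.2 for Tapbp and 3.53 for Erap1. Depth limits H2-T23 and Nlrc5, which had 29 to 114 and 21 to 71 reads per sample.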
